A study of Mus musculus with 6 samples.

Results

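The 77 genes described here carry the symbols of mitochondrial ribosomal proteins, and were taken as every gene whose symbol begins with Mrpl or Mrps followed by a digit and that a probe set names alone. The symbol rule takes in Mrps36, whose product is now placed outside the ribosome, and leaves out ribosomal proteins with other symbols. They had 85 probe sets, and for each gene the probe set with the highest mean log2 level over the 6 arrays was used, out of 34760 probe sets that name 19937 genes in all. Of 78 coding genes with such symbols in RefSeq, the 1 missing was Mrpl53, whose probe set also names Ccdc142. Affymetrix arrays had been hybridised with RNA of CD4+ T cells, the helper and regulatory T lymphocytes, from mice of 6 weeks of age that the labels place on the C57BL/6 strain. Cells of 3 WT samples were compared with cells of 3 CBS-KO samples, from mice deficient in cystathionine beta-synthase, an enzyme that uses homocysteine and also makes hydrogen sulfide. The labels call the samples biological replicates, and no treatment is named for either group. The labels name neither the CBS allele nor the tissue the cells came from, nor their purity.

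Mitochondria translate the few proteins encoded in their own DNA, all of them core subunits of the respiratory chain and ATP synthase, on a ribosome of their own. Its RNA comes from mitochondrial DNA, while all of its proteins are encoded in the nucleus, made in the cytosol and imported. The small subunit (Mrps genes) reads the messenger RNA, and the large subunit (Mrpl genes) joins amino acids and holds the exit tunnel. Many of these proteins descend from the bacterial ribosome and others are found only in mitochondria, and T cells are known to expand mitochondrial translation when they leave the resting state and divide.

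Intensities are given as log2(intensity + 16), and differences are CBS-KO minus WT. Between arrays, the CBS-KO samples were less alike than the WT samples. Pairs of WT arrays correlated at 0.989 to 0.994 over all probe sets (Pearson's r, across genes that are not replicates), and pairs of CBS-KO arrays at 0.970 to 0.989. The Y-linked gene Eif2s3y was above Xist, which is expressed from the inactive X of females, on CBS-KO 1 and 2 and on none of the other 4 arrays, so sex and genotype are partly confounded. The Cbs probe set did not separate the groups (7.35 ± 0.15 in WT and 7.41 ± 0.20 in CBS-KO, SD, n = 3 each). Since neither the deleted part of the gene nor the part this probe set covers is known here, it does not check the labels. Of 10 measured markers of CD4 T cells, all were detected above the filter on dim probe sets.

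No mitochondrial ribosomal protein gene changed past the threshold between WT and CBS-KO cells. All 77 genes were bright enough to be tested, and 0 of 77 were higher and 0 of 77 lower at an adjusted p under 0.05 in limma, where 5.09% of the 20856 tested probe sets were higher and 4.47% lower (6.62% and 4.45% of named genes at their brightest probe set). At an unadjusted p under 0.05, 17 of 77 were higher, against 13.6% of the tested probe sets, and 1 of 77 was lower, against 17.3%. Most values were nevertheless on the positive side: 67 of 77 differences were above 0, against 42.8% of the tested probe sets. Their median was 0.23, beside -0.05 over all tested probe sets and -0.01 over the brightest probe set of each named gene. The differences ran from -0.32 to 1.14 with a median standard error of 0.22, and the smallest adjusted p was 0.0617. In 17 genes every CBS-KO array lay above every WT array (15.0% of the tested probe sets did), and in 1 gene every CBS-KO array lay below (21.7%). In 59 of the 77 genes the groups overlapped.

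The overlap came with a wide spread inside the CBS-KO group. The SD of a member had a median of 0.10 within the WT group and 0.40 within the CBS-KO group, beside 0.11 and 0.21 for all tested probe sets, and the CBS-KO SD was the larger in 75 of 77 genes. The 3 CBS-KO arrays fell in the same order in nearly every member. In 75 of 77 genes (97.4%) CBS-KO 2 was the lowest and CBS-KO 3 the highest of the 3, an order found, with ties not counted, in 33.3% of tested probe sets (the opposite order in 32.3%) and in 38.5% of named genes at their brightest probe set. The exceptions were Mrpl33, a large subunit protein with a bacterial homolog, and Mrpl24, which lies at the exit tunnel. Relative to the WT mean, the median member stood at 0.29 on CBS-KO 1, -0.18 on CBS-KO 2 and 0.63 on CBS-KO 3, while the WT arrays stood between -0.03 and 0.06. CBS-KO 3 lay above the highest WT array in 72 of 77 genes (35.4% of tested probe sets), and CBS-KO 1 in 58 (31.0%). CBS-KO 2 lay below the lowest WT array in 43 of 77 genes (39.5%) and above the highest in 17.

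**Figure D1:**
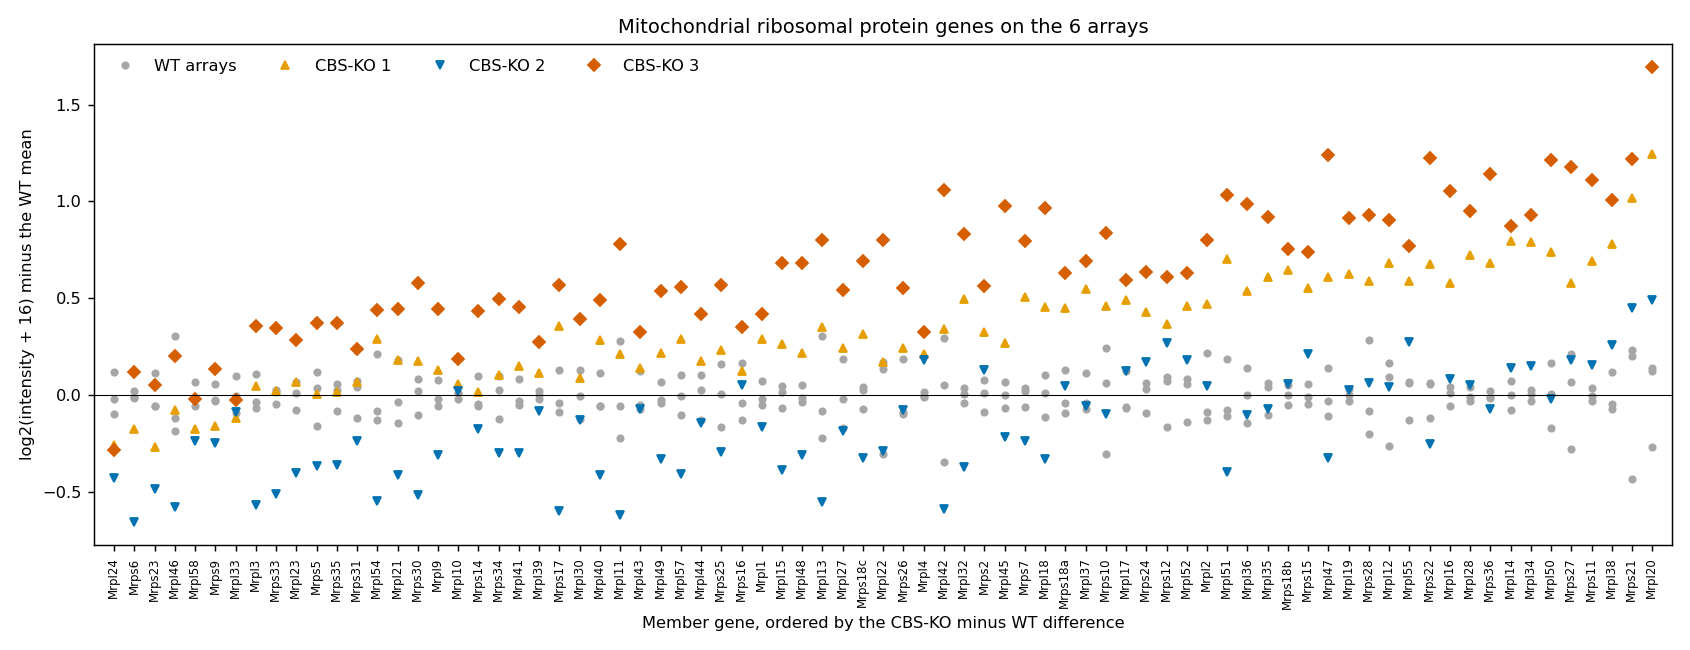
Each of the 77 member genes along the horizontal axis, with the log2(intensity + 16) of each array minus that gene's WT mean on the vertical axis; grey points are the 3 WT arrays and coloured symbols the 3 CBS-KO arrays. CBS-KO 3 is the highest and CBS-KO 2 the lowest CBS-KO array in 75 of the 77 genes.

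The gap between CBS-KO 3 and CBS-KO 2 was positive in every member, from 0.06 in Mrpl33 to 1.65 in Mrpl42, a large subunit protein found only in mitochondria. Its median was 0.78, beside -0.05 over all tested probe sets, of which 10.1% had a gap at least as large as that median. Because both arrays belong to 1 group, this gap is a spread between replicates and is no difference between genotypes. The 2 arrays also differ in Y-linked signal, with Eif2s3y at 9.19 on CBS-KO 2 and 4.87 on CBS-KO 3. CBS-KO 1 had that signal too (9.41). The part of sex in the gap was not tested.

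**Figure D2:**
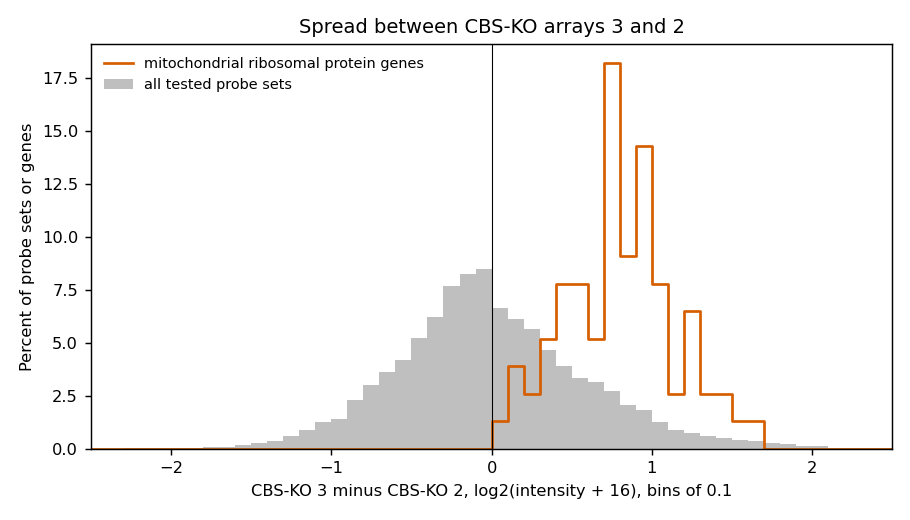
Distribution of the log2 level on CBS-KO 3 minus that on CBS-KO 2, in bins of 0.1, as a percent of the tested probe sets (grey bars) and of the 77 members (line). The members lie between 0.06 and 1.65, all above 0, while the tested probe sets are spread around a median of -0.05.

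The result for the group as a whole rested on single CBS-KO arrays. Without CBS-KO 2, 37 of 77 members were higher and 0 lower (limma, adjusted p under 0.05), where 16.3% of tested probe sets were higher and 14.5% lower, and the median difference was 0.48. Without CBS-KO 3, 0 of 77 passed in either direction (background 3.92% higher and 2.69% lower) and the median was 0.04. Without CBS-KO 1, 0 of 77 passed as well, where 0.571% of tested probe sets were higher and 0.225% lower. With sex as a model term, 20 members were higher and 0 lower, against 11.1% and 12.8% of tested probe sets, and the median was 0.63. On the 4 arrays without Y-linked signal alone, 41 members were higher and 0 lower, where 16.7% and 15.5% of tested probe sets were. In both of these fits the estimate rests on CBS-KO 3, the only CBS-KO array without Y-linked signal. With the replicate number as a block, 0 of 77 passed, where 5.61% of tested probe sets were higher and 4.43% lower.

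The largest positive differences were in proteins of both subunits. Mrpl20, the homolog of a bacterial protein that binds ribosomal RNA early in the assembly of the large subunit, had log2 levels of 8.71, 8.73 and 8.32 in WT and 9.83, 9.08 and 10.28 in CBS-KO 1 to 3. The groups did not overlap, and the difference was 1.14 (SE 0.31, 95% interval 0.41 to 1.88, limma adjusted p = 0.0617), a 2.21-fold higher mean on the offset scale. Mrps21, the homolog of bacterial S21, had levels of 11.32, 11.35 and 10.69 in WT and 12.14, 11.57 and 12.34 in CBS-KO 1 to 3 (difference 0.90, SE 0.25, adjusted p = 0.0687). In both genes WT 3 was the lowest WT array and CBS-KO 2 the lowest CBS-KO array. Mrpl38, a protein of the central protuberance found only in mitochondria, had 9.24, 9.27 and 9.44 in WT and 10.10, 9.58 and 10.33 in CBS-KO 1 to 3 (0.68, SE 0.20, adjusted p = 0.0770). Mrps11, of the platform of the small subunit, had 8.39, 8.36 and 8.43 in WT against 9.09, 8.54 and 9.50 (0.65, SE 0.24, adjusted p = 0.123). These 4 genes separated the groups completely, yet none passed the threshold.

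Mrps27 and Mrpl50 completed the 6 largest differences, and in them the groups overlapped. Mrps27, a small subunit protein built of pentatricopeptide repeats, had 8.84, 8.69 and 8.35 in WT and 9.21, 8.81 and 9.80 in CBS-KO 1 to 3 (0.65, SE 0.27, adjusted p = 0.164). Mrpl50, found only in mitochondria, had 9.53, 9.36 and 9.69 in WT and 10.27, 9.51 and 10.74 in CBS-KO 1 to 3 (0.64, SE 0.30, adjusted p = 0.202). In both, only CBS-KO 2 lay within the WT range. Without CBS-KO 2 all 6 passed, in a fit where 37 of 77 members and 16.3% of tested probe sets were higher. The 6 had been picked by their size on these same arrays. Their differences in that fit were 1.47 for Mrpl20, 1.12 for Mrps21, 0.89 for Mrpl38, 0.90 for Mrps11, 0.88 for Mrps27 and 0.98 for Mrpl50.

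At the other end stood Mrpl24, the single member with every CBS-KO array below every WT array. It had 10.58, 10.66 and 10.80 in WT and 10.42, 10.25 and 10.40 in CBS-KO 1 to 3 (difference -0.32, SE 0.11, 95% interval -0.58 to -0.06, adjusted p = 0.101). Mrps6, the platform partner of the S18 proteins, had 10.09, 10.06 and 10.05 in WT and 9.89, 9.41 and 10.19 in CBS-KO 1 to 3 (-0.24, SE 0.20, adjusted p = 0.468). The level on CBS-KO 2 was the lowest of the 6 arrays in both. Mrps23, a small subunit protein found only in mitochondria, had 10.58, 10.75 and 10.58 in WT and 10.37, 10.15 and 10.69 in CBS-KO 1 to 3 (-0.23, SE 0.16, adjusted p = 0.359). Mrpl46, of the central protuberance, differed by -0.15 (SE 0.24, adjusted p = 0.715), Mrpl58, a hydrolase of the large subunit that frees stalled peptides, by -0.14 (SE 0.11, adjusted p = 0.417), and Mrps9, which contacts the transfer RNA that carries the growing peptide, by -0.09 (SE 0.14, adjusted p = 0.714). In these 5 the groups overlapped, and without CBS-KO 3 or CBS-KO 2 none of the 6 lowest passed either.

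Promoter sequence was read for the members, and is shown for some at both ends of this range: 3 with the shared order of CBS-KO arrays, and Mrpl24, which did not have it. RefSeq windows on GRCm38.p6, reaching from 250 bases before to 50 bases after a start, were found for 68 of the 77 members. Matches were searched on both strands for the letters CCGGAAG, which ETS family factors such as GABP bind, for the motif of NRF1, a regulator of nuclear genes for mitochondria, and CACGTG, the E-box bound by MYC. The 150 bases before the start of Mrpl20 (chr4:155802728-155802877, + strand), Mrps21 (chr3:95871515-95871664, - strand), Mrps22 (chr9:98601680-98601829, - strand) and Mrpl24 (chr3:87919394-87919543, + strand) are shown from 5′ to 3′, with capitals marking matches. Mrps22, a small subunit protein found only in mitochondria, is included as an example with an ETS match near its start, and was chosen after its values were seen.
Mrpl20: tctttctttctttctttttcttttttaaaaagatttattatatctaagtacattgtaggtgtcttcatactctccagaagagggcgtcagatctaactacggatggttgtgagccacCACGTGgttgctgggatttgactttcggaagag
Mrps21: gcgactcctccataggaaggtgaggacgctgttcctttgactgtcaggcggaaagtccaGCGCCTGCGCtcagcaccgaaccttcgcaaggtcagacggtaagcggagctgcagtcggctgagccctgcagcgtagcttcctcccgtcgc
Mrps22: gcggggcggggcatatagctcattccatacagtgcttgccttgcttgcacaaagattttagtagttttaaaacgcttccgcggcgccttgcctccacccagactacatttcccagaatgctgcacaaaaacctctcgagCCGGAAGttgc
Mrpl24: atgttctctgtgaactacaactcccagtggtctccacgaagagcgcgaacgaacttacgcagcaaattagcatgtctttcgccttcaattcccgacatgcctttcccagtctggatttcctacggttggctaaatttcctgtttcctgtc
The stretch of Mrps21 also overlaps the long noncoding RNA gene C920021L13Rik. The window of Mrpl20 holds an E-box, that of Mrps21 an NRF1 match and that of Mrps22 an ETS match, while none of these letters stand in the 150 bases of Mrpl24. Mrps22 had 9.21, 9.20 and 9.03 in WT and 9.83, 8.90 and 10.37 in CBS-KO 1 to 3 (0.55, SE 0.35, adjusted p = 0.337), so CBS-KO 2 lay below and the other CBS-KO arrays above all WT arrays.

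Over the whole windows, 25 of 68 members (36.8%) held an ETS match, against 8.86% of all 32851 windows and 18.9% of the 10220 tested genes with a window. The NRF1 motif was found in 13 members (19.1%, against 4.6% of all windows and 10.8% of tested genes), and AAGATGGCG, bound by YY1, in 8 (11.8%, against 1.4% and 3.28%). The E-box stood in 5 members (7.35%, against 7.15% and 11.5%), the CCAAT box in 26 (38.2%, against 37.4% and 41.8%), GGGCGG in 34 (against 35.7% and 66.2%) and TATAAA in 5 (7.35%, against 13.6% and 9.08%). Members with an ETS match had a median difference of 0.23 and those without one of 0.27, and for NRF1 the medians were 0.24 and 0.23. With and without a match they were 0.44 and 0.19 for YY1 (8 members with a match), 0.44 and 0.20 for the E-box (5 members), 0.29 and 0.21 for CCAAT, 0.26 and 0.21 for GGGCGG, and 0.20 and 0.24 for TATAAA. These medians were described and not tested. A match describes letters and does not show binding.

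Several members share a promoter region with a neighbour read in the opposite direction. Of the 68, 26 had a divergent start within 1000 bases upstream, and 1 such pair joins 2 members, Mrps11 and Mrpl46. The bases between the starts are shown for that pair (chr7:78783090-78783130, + strand) and for 3 members, chosen after their values were seen, whose partner also serves mitochondrial gene expression. These are Mrps27 with Ptcd2 (chr13:99344679-99344785, + strand), Mrps12 with Sars2, the mitochondrial seryl-tRNA synthetase (chr7:28741822-28741967, - strand), and Mrpl43 with Twnk, the helicase of mitochondrial DNA (chr19:45006443-45006557, - strand). Capitals mark ETS, NRF1 and E-box matches, and each line ends at the start of the first gene named.
Mrps11 and Mrpl46: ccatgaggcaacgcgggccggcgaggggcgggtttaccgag
Mrps27 and Ptcd2: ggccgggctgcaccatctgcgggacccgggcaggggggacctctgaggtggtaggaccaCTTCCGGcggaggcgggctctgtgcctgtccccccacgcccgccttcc
Mrps12 and Sars2: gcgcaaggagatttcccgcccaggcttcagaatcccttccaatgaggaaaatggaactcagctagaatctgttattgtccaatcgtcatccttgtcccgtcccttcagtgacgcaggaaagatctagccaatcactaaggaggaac
Mrpl43 and Twnk: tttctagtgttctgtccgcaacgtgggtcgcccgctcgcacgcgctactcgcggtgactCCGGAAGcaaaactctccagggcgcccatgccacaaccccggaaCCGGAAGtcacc
Mrps11 and Mrpl46 start 42 bases apart and stood at opposite ends of the range, with differences of 0.65 and -0.15. Mrpl46 had 8.88, 8.81 and 9.30 in WT and 8.92, 8.42 and 9.20 in CBS-KO 1 to 3, so both genes were lowest on CBS-KO 2 and highest on CBS-KO 3 among the CBS-KO arrays. Ptcd2 differed by 0.03 (SE 0.20) beside 0.65 for Mrps27, Sars2 by 0.39 (SE 0.18) beside 0.42 for Mrps12, and Twnk by 0.28 (SE 0.24) beside 0.13 for Mrpl43, none past the threshold. Of the 22 tested partners that are no member, 11 showed the order with CBS-KO 2 lowest and CBS-KO 3 highest. Of named genes at their brightest probe set, 38.5% had it. The partners' median difference was -0.01, beside 0.34 for the members they adjoin. Of these partners 0 were higher and 1 lower past the threshold, where 6.62% and 4.45% of named genes at their brightest probe set were. That gene was Mitd1, which adjoins Mrpl30 (-0.68, SE 0.13, adjusted p = 0.0276), where Mrpl30 differed by 0.12 (SE 0.16).

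The 26 small subunit genes had a median difference of 0.23 and the 50 large subunit genes of 0.21, and relative to WT they stood at 0.32 and 0.29 on CBS-KO 1, -0.21 and -0.18 on CBS-KO 2, and 0.57 and 0.66 on CBS-KO 3. Divided by origin as classed here, the 47 proteins assigned bacterial homologs had a median of 0.34. The 28 assigned to mitochondria only had a median of 0.15. No protein sequences were compared in assigning these classes. Of the 17 members with every CBS-KO array above WT, 14 were in the first class and 3 in the second. This is 14 of 47 and 3 of 28, where 15.0% of tested probe sets had that separation. Without CBS-KO 2 the medians were 0.53 and 0.39, with 26 of 47 and 10 of 28 higher past the threshold, where 16.3% of tested probe sets were higher. These divisions were described and not tested, because genes are not replicates of a genotype. Mrps36, counted in no subunit because its product is placed in the 2-oxoglutarate dehydrogenase complex, differed by 0.58 (SE 0.29, adjusted p = 0.228).

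**Figure D3:**
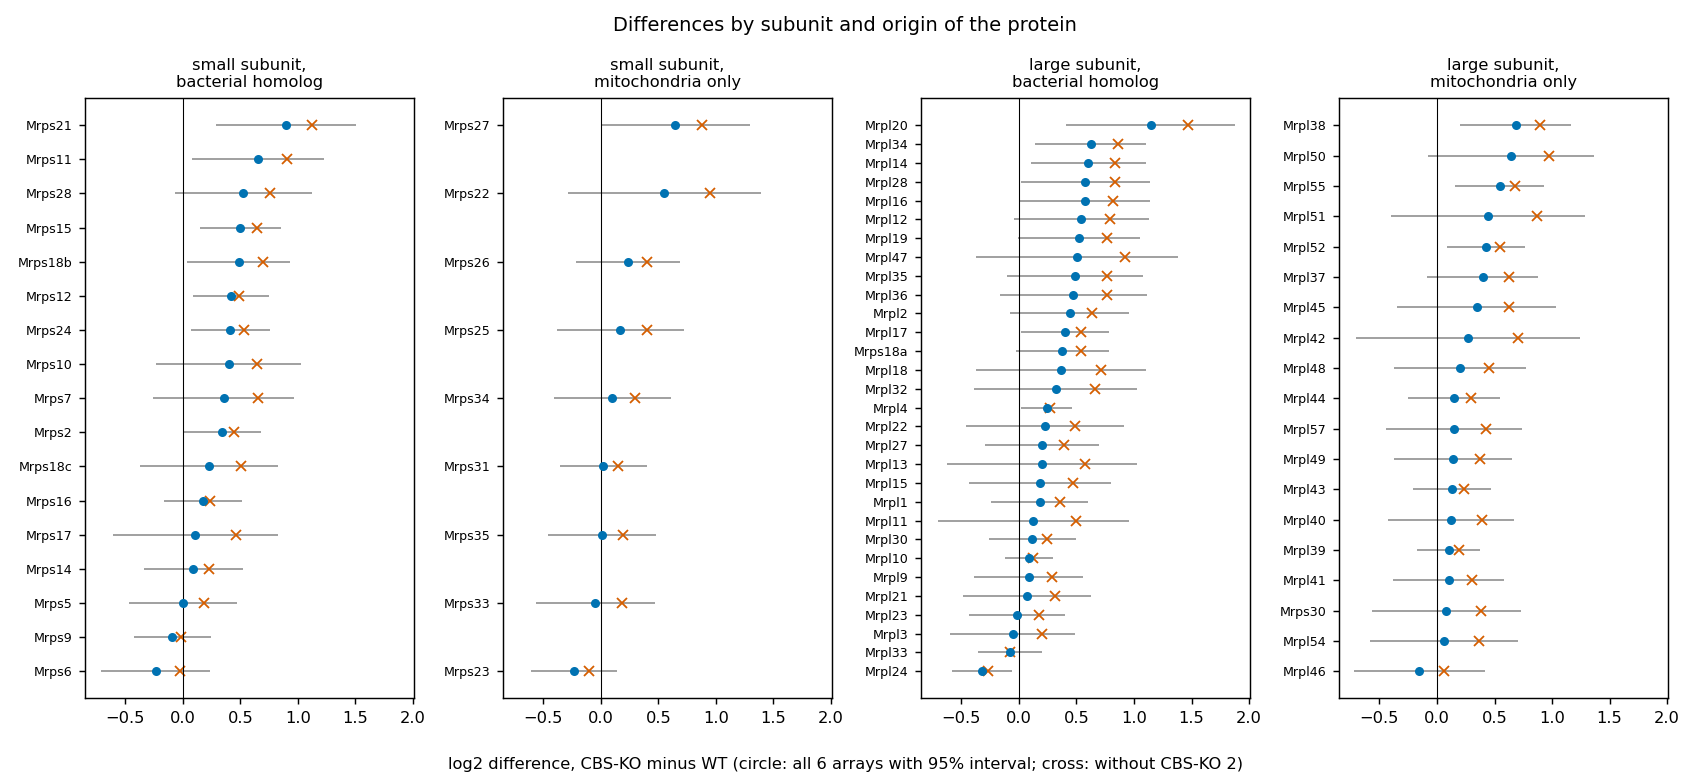
CBS-KO minus WT differences in log2 units for 75 members in 4 panels by subunit and by origin as classed here (Mrpl58 and Mrps36 are not drawn). Circles with bars are the estimate and 95% interval from all 6 arrays, crosses the estimate without CBS-KO 2; most crosses lie to the right of the circles, and Mrpl20 reaches 1.47.

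Members can also be ordered by their place in the ribosome, in groups drawn up after the values were seen. Among proteins that line the path of the messenger RNA, Mrps12 of the decoding centre, the member nearest the filter on dim probe sets, had 7.64, 7.40 and 7.66 in WT and 7.94, 7.84 and 8.18 in CBS-KO 1 to 3 (0.42, SE 0.14, adjusted p = 0.0989). Mrps24, the homolog of bacterial S3, had 9.83, 9.99 and 9.96 in WT and 10.36, 10.10 and 10.56 in CBS-KO 1 to 3 (0.41, SE 0.14, adjusted p = 0.110). Both had groups that did not overlap. Mrps5, in the same path, differed by 0.00 (SE 0.20), and Mrps28, the homolog of bacterial S1, by 0.53 (SE 0.25, adjusted p = 0.203).

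On the stalk of the large subunit, which recruits translation factors, Mrpl12 had 9.29, 9.65 and 9.72 in WT and 10.24, 9.60 and 10.46 in CBS-KO 1 to 3 (0.54, SE 0.25, adjusted p = 0.186). Mrpl10, which holds Mrpl12 on the ribosome, had 11.19, 11.19 and 11.16 in WT and 11.24, 11.20 and 11.37 in CBS-KO 1 to 3 (0.09, SE 0.09, 95% interval -0.12 to 0.30, adjusted p = 0.543). Its arrays lay close together, so that larger differences are outside the interval, while Mrpl11 at the stalk base differed by 0.13 with an interval of -0.71 to 0.96. Around the exit of the peptide tunnel, the differences were -0.32 for Mrpl24, -0.02 for Mrpl23, 0.23 for Mrpl22, 0.34 for Mrpl45, which anchors the ribosome to the inner membrane, and 0.51 for Mrpl47. None of these passed. In the central protuberance they ran from -0.15 for Mrpl46 to 0.68 for Mrpl38, with Mrpl40 at 0.12, Mrpl48 at 0.20, Mrpl27 at 0.20 and Mrpl18 at 0.37.

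Mice carry 3 paralogs of bacterial S18, and all 3 had positive differences. Mrps18b had 10.74, 10.79 and 10.69 in WT and 11.39, 10.80 and 11.50 in CBS-KO 1 to 3, so that CBS-KO 2 stood just above the WT arrays (0.49, SE 0.19, 95% interval 0.04 to 0.93, adjusted p = 0.137). Mrps18a, which is built into the large subunit, had 10.11, 10.06 and 10.28 in WT and 10.60, 10.19 and 10.78 in CBS-KO 1 to 3 (0.38, SE 0.17, adjusted p = 0.187). Mrps18c had 9.66, 9.54 and 9.64 in WT and 9.93, 9.29 and 10.30 in CBS-KO 1 to 3 (0.23, SE 0.25, adjusted p = 0.590), with CBS-KO 2 below all WT arrays. Without CBS-KO 2 all 3 passed, with differences of 0.70, 0.54 and 0.50. In that fit 37 of the 77 members and 16.3% of tested probe sets were higher.

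For 8 members a further probe set names the gene. The probe sets of a gene differed by at most 0.40 in their differences, in Mrpl47 (0.51 and 0.11), and none passed the threshold. They differed in sign in Mrpl23 (-0.02 and 0.01) and Mrps33 (-0.05 and 0.08, the second not tested). The unused probe sets ran from 0.01 to 0.68. RefSeq lists 6 pseudogenes named after 4 members (Mrpl23, Mrpl27, Mrpl48 and Mrps36), whose signal could come in part from these copies. By chromosome, the 8 members on chromosome 17, which also carries Cbs, had a median of 0.42 (0.10 to 0.60), and the other 69 a median of 0.20 (-0.32 to 1.14). Higher medians stood on chromosomes 4 (0.57, 4 members), 3 (0.51, 5 members) and 13 (0.47, 5 members), and lower ones on the remaining chromosomes with members.

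The same order of CBS-KO arrays was counted in other nuclear genes of mitochondria, which share all arrays with the members. Of 79 tested subunits of the respiratory chain and ATP synthase, 73 had CBS-KO 2 lowest and CBS-KO 3 highest, and they stood at 0.26, -0.11 and 0.49 on CBS-KO 1 to 3, beside 0.29, -0.18 and 0.63 for the ribosomal proteins. Of these subunits 3 were higher past the threshold and 0 lower. Among named genes at their brightest probe set, 6.62% were higher and 4.45% lower, and 38.5% had the order. The 3 were Atp5g1, which encodes the membrane ring of ATP synthase (1.04, SE 0.15), the complex III core gene Uqcrc1 (0.61, SE 0.12) and Cox6b2 of complex IV (2.51, SE 0.36). All 24 genes of protein import and other abundant mitochondrial proteins had that order (0.43, -0.04 and 0.69), with 0 past the threshold, among them the chaperone genes Hspa9 (0.70, SE 0.19, adjusted p = 0.0601) and Hspd1 (0.81, SE 0.27, adjusted p = 0.0963), both chosen after their values were seen. The 4 ribosomal proteins with other symbols, Chchd1, Ptcd3, Dap3 and Gadd45gip1, all had it too, with differences of 0.54, 0.25, 0.14 and 0.01 and 0 past the threshold.

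Of 25 factors that assemble the mitochondrial ribosome, 18 had that order, and 0 were higher or lower past the threshold (median 0.05, with 0.07, -0.12 and 0.15 on CBS-KO 1 to 3). The smallest adjusted p there, singled out after the values were seen, was that of Mpv17l2 (0.40, SE 0.13, adjusted p = 0.0987). Of 19 mitochondrial tRNA synthetases and amidotransferase subunits, 15 had the order and 1 was higher past the threshold, with a list median of 0.09. Among named genes at their brightest probe set, 6.62% were higher, 4.45% were lower and 38.5% had the order. The 1 higher gene was the amidotransferase subunit Gatc (0.80, SE 0.17, limma adjusted p = 0.0369). For the ribosome of the cytosol, 31 of 58 tested genes had the order, the median difference was -0.08 with 0 past the threshold, and the list stood at -0.11, -0.13 and -0.03 on CBS-KO 1 to 3. Every CBS-KO array lay below every WT array in 14 of these 58 genes and above in 4, where 21.7% and 15.0% of tested probe sets did. The list was taken by symbol, so it includes the like-named genes Rps27l, Rps4l, Rpl7l1 and Rpl32l. The 4 above were Rps27l (0.97), Rps4l (0.42), Rpl7l1 (0.33) and Rpl41 (0.07).

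**Figure D4:**
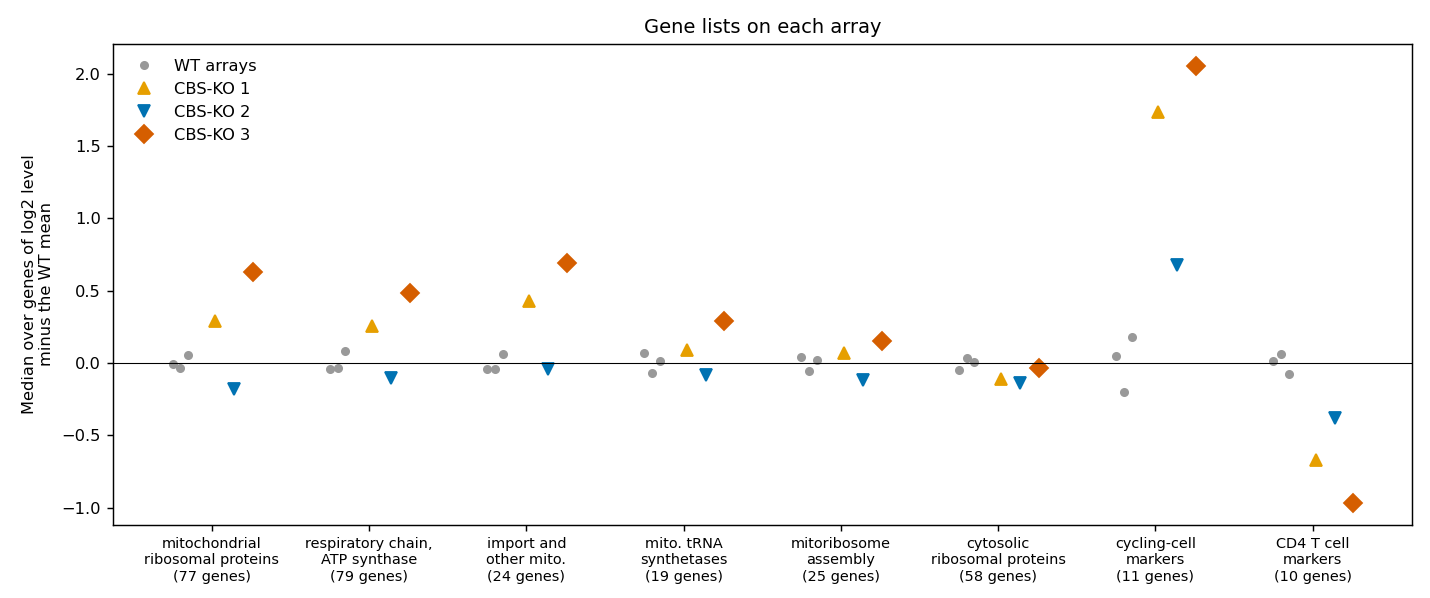
Median over the tested genes of each list of log2(intensity + 16) minus the gene's WT mean, for the 3 WT arrays (grey) and each CBS-KO array. The mitochondrial ribosomal proteins stand at 0.29, -0.18 and 0.63 on CBS-KO 1 to 3, cytosolic ribosomal proteins near 0, cycling-cell markers at 1.73, 0.68 and 2.05, and CD4 T cell markers at -0.67, -0.38 and -0.97.

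Markers of dividing cells and of other cell types moved on the same arrays. For comparison with the counts below, 6.62% of named genes at their brightest probe set were higher past the threshold and 4.45% lower. Of the same genes, 38.5% had CBS-KO 2 lowest and CBS-KO 3 highest among the CBS-KO arrays. Of 11 measured markers of cycling cells, 6 were higher and 0 lower, such as Mki67 (1.69, SE 0.29) and Rrm2 (1.96, SE 0.37), picked as examples after the fit, and all 11 were lowest on CBS-KO 2 and highest on CBS-KO 3 among the CBS-KO arrays. Their summed intensity was 13706 to 17848 on the WT arrays and 23532 to 54437 on the CBS-KO arrays. Of 6 erythroid markers all were higher, and 5 had that order of arrays, with a summed intensity of 1304 to 2752 in WT and 12996 to 28859 in CBS-KO. Of 12 neutrophil markers 11 were higher and 1 had that order (1458 to 3104 in WT, 26378 to 37065 in CBS-KO), and of 9 monocyte and macrophage markers all were higher and 0 had it (1786 to 3611 and 13468 to 18058). CD4 T cell markers were lower in 5 of 10 and higher in 0, and had summed intensities of 62362 to 67491 in WT and 32667 to 51358 in CBS-KO. In 10 of 10 every CBS-KO array lay below every WT array, as in 21.7% of tested probe sets. All of these markers had the opposite order, with CBS-KO 3 lowest and CBS-KO 2 highest, which 32.3% of tested probe sets had. B cell markers (1 of 5 higher) and CD8 markers (0 of 2) were highest on CBS-KO 2, at 0.99 and 0.97 above WT. The part of these cells in the levels of the mitochondrial ribosomal protein genes was not tested, and in RNA of whole samples fewer cells of a type and less RNA per cell cannot be told apart.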

How the data were processed

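Each of the 6 arrays has a column of linear-scale intensity, 1 value per probe set, in the table the authors deposited. How background, normalization and probe set summary were handled is not stated in the labels or the table. Per the labels' protocols, cRNA was prepared from 6 ug of total RNA by the Affymetrix standard. The medians of the arrays ranged from 7.37 to 7.55 in log2 units, and no shift was applied to them. A probe set was tested where its mean log2(intensity + 16) exceeded the 40th percentile (6.99), which left 20856. Groups were compared in limma 3.58.1 under R 4.3.3, with eBayes trend fitted, two-sided, p-values adjusted by Benjamini-Hochberg over all tested probe sets and a threshold of 0.05. The procedure was also run on simulated data with the same SD in both groups and independent noise. The members' spread was unequal between groups and shared between genes, so that run does not bear on it. Precision is limited by having 3 arrays in a group, and the p-values measure the spread between these arrays. Gene names follow GEO's platform annotation, and Entrez identifiers changed 0 symbols. Genes of mitochondrial DNA were matched to no probe set and are not analysed here.

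The members and gene lists were chosen with earlier results of these data known. The rule for named genes took members past the threshold (0), the 6 largest and 6 smallest differences, the S18 paralogs, members whose probe sets disagree, the member nearest the filter, and genes of the other lists that passed, up to 4 in each direction. Any other gene was chosen after its values were seen. Settings tried besides were quantile normalization, equal array medians, filters at no level and at the 60th percentile, offsets of 1 and 64, eBayes without a trend or robust, a replicate block, averaging the probe sets of a gene, sex as a model term and each array left out. The fit of arrays without Y-linked signal was added after seeing the data. Figures were drawn with matplotlib 3.10.9.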

Additional observations from a re-analysis of the deposited data

How the results depend on the processing

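The count of 0 members higher and 0 lower at an adjusted p under 0.05 in limma held under quantile normalization, a common array median, both other filters, both other offsets, both other variance models, the replicate block and averaged probe sets per gene. It was 20 higher with sex as a model term and 41 higher on the 4 arrays without Y-linked signal, where the estimate rests on CBS-KO 3, and 0 lower in both. Leaving out each array in turn gave 0 to 37 higher and 0 lower, 37 being the count without CBS-KO 2, and a median difference of 0.04 to 0.48. Changes of sign under each setting were followed in 15 members: the 6 largest and 6 smallest differences and the S18 paralogs. Those of their differences that changed sign were short of the threshold there. On the arrays without Y-linked signal and with sex as a model term they were 0.12 for Mrps6, 0.0535 for Mrps23, 0.20 for Mrpl46 and 0.14 for Mrps9. Outside these 15, Mrpl3, Mrps33 and Mrpl23 also turned positive in both fits (0.36, 0.35 and 0.28) and without CBS-KO 2 (0.20, 0.18 and 0.17). Leaving out each array in turn, Mrpl46 ranged from -0.3289 (without CBS-KO 3) to 0.0616 (without CBS-KO 2), with 0.0013 without WT 3, and Mrps18c from -0.0057 (without CBS-KO 3) to 0.503 (without CBS-KO 2, past the threshold). The cause was not tested. The labels do not say whether the replicate numbers pair the samples. In their deviations from the group means, same-numbered arrays correlated at 0.063 to 0.158. Each of the 6 arrays correlated best with its own number, and these values do not decide whether samples were paired. With the replicate block, 0 members passed, the median difference was 0.23, and 1169 probe sets were higher and 924 lower, against 1062 and 933.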

Other observations

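The genes named in these paragraphs were chosen after their values were seen, since none passed the threshold. Of named genes at their brightest probe set, 6.62% were higher past the threshold and 4.45% lower. The order with CBS-KO 2 lowest and CBS-KO 3 highest was found in 38.5% of them. Of 14 tested mitochondrial translation factors, 0 passed the threshold in limma (4 of 14 differences were negative, median 0.18). Mtfmt, which formylates the initiator tRNA, had a difference of -0.41 (SE 0.13, adjusted p = 0.0881), the initiation factor Mtif3 of -0.31 (SE 0.11, adjusted p = 0.123) and the elongation factor Tsfm of 0.71 (SE 0.26, adjusted p = 0.120). Of 17 genes that copy or transcribe mitochondrial DNA or process its RNA, 0 passed and 14 were lowest on CBS-KO 2 and highest on CBS-KO 3 among the CBS-KO arrays, with a median of 0.20. Polg2, a subunit of the mitochondrial DNA polymerase, differed by -0.60 (SE 0.24, adjusted p = 0.151) and the exonuclease gene Rexo2 by 0.49 (SE 0.20, adjusted p = 0.145).

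Among 9 tested regulators of mitochondrial gene expression, 0 passed, 6 had that order of arrays and the median was -0.01. Myc, whose protein binds the E-box letters, had the smallest p (0.65, SE 0.19, adjusted p = 0.0725), followed by the coactivator gene Pprc1 (0.48, SE 0.18, adjusted p = 0.137). Without CBS-KO 2 these were 0.86 and 0.66, and both passed, where 16.3% of tested probe sets were higher.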
